A study of Mus musculus with 12 samples.

Results

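The comparison described here sets every nucleus accumbens array from mice whose last injection was cocaine against the arrays from mice that received only saline. It takes in 12 arrays of 12 in the series, 9 titled cocaine and 3 titled saline, and it was made on probes with a detection p under 0.05 on all 12 arrays, which left 19247 of 45281 probes. All mice were C57BL/6J, aged 8 to 10 weeks, and had 15 daily intraperitoneal injections, with tissue taken 1 h after the last of them. In the saline group all 15 were saline. In the acute group 14 were saline and the last was cocaine-HCl at 20 mg/kg, and in the repeated group the first 7 were saline and the last 8 cocaine at that dose. In the withdrawal group 7 of cocaine were followed by 7 of saline and by a single cocaine challenge at that dose. Each group had 3 Illumina MouseWG-6 v2.0 arrays, and each array carried RNA from bilateral punches pooled over 4 mice, so the spread between arrays is that between pools. The comparison asks what the accumbens of cocaine-injected mice shared 1 h after the drug, whatever the earlier injections, while the series title is about G9a, a histone methyltransferase, and repeated exposure.

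The nucleus accumbens is the ventral part of the striatum and consists mostly of inhibitory medium spiny neurons that receive dopamine from the midbrain and glutamate from cortex, amygdala and hippocampus. Cocaine blocks the dopamine transporter, and the raised dopamine acts through D1-type receptors, cyclic AMP and the ERK kinases on transcription factors such as CREB and SRF. Their best known targets are the immediate early genes, whose transcripts appear within minutes without new protein synthesis and whose products (Fos and Jun family subunits of AP-1, Egr zinc finger factors) control later genes. Heat shock genes form another rapid transcriptional programme, driven by the factor HSF1 when proteins unfold, and their products are chaperones.

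Cocaine arrays had higher levels than saline arrays of immediate early genes such as Egr2, Fos and Npas4, and of chaperones such as Hspa1a and Dnajb1. Ribosomal protein and mitochondrial genes lay slightly lower in most members. No single probe passed the threshold for adjusted p-values, so the values given here describe levels and counts of members. Of 19247 probes, 0 (0%) had a limma p adjusted by Benjamini-Hochberg under 0.05, and the lowest adjusted p was 0.109. An unadjusted limma p under 0.05 was found for 2023 probes (10.5%), against 962 that this threshold gives by its definition. The submitters' gene lists rested on a 1.3-fold difference together with a p under 0.05. Those limits, applied here with limma's unadjusted p, are named the series criteria. They were met by 437 probes (2.27%), 246 higher in cocaine (1.28%) and 191 lower (0.992%), so that 56.3% of them were higher. This split depended on the processing: the share higher was 92.3% of 26 probes on signals without background subtraction and 44.8% of 174 with 1 probe per gene. Dim probes, with a mean log2 intensity under 6, made up 60.0% of the probes meeting the criteria and 19.6% of all probes. In 429 probes (2.23%) all 9 cocaine arrays lay above (196, 1.02%) or below (233, 1.21%) all 3 saline arrays, and 117 probes met this and the series criteria.

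**Figure D1:**
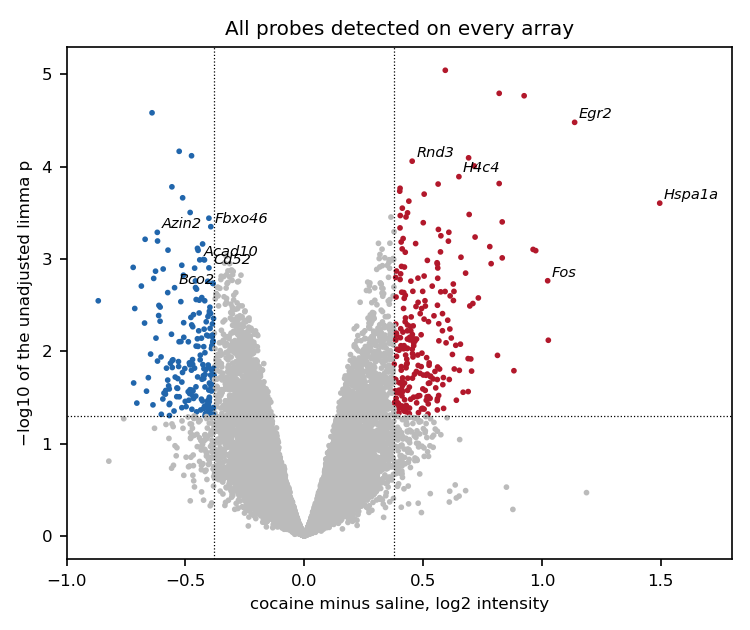
Each point is 1 of 19247 probes. The horizontal axis is the mean of the 9 cocaine arrays minus the mean of the 3 saline arrays in log2 intensity, and the vertical axis is −log10 of the unadjusted limma p. Dotted lines mark a 1.3-fold difference and an unadjusted limma p of 0.05, and coloured points meet both limits, 246 higher in cocaine (red) and 191 lower (blue).

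With a gene represented by its brightest probe, 10401 genes were measured, and the counts below are read against theirs. The series criteria were met by 174 genes (1.67%), 78 higher (0.75%) and 96 lower (0.923%), and an unadjusted p under 0.05 was found for 983 genes (9.45%). The groups did not overlap in 227 genes (2.18%), 87 higher (0.836%) and 140 lower (1.35%). The median difference over all genes was -0.00 on the log2 scale, and 49.6% of genes were higher in cocaine. Medium spiny neuron markers, which define the labelled tissue, were measured for 27 of 31 listed genes, and their mean log2 intensity ran from 11.25 to 11.50 on the saline arrays and from 11.33 to 11.63 on the cocaine arrays. With the replicate number as a block, 2 probes passed the adjusted threshold, both at an adjusted limma p of 0.0200. They are a probe of Gca, which encodes the calcium-binding protein grancalcin, and probe ILMN_2582890, which has no symbol here. The Gca probe lay at 4.11, 4.42 and 4.72 on the saline arrays and between 5.12 and 5.65 (median 5.34) on the cocaine arrays. A brighter Gca probe differed by 0.12 ± 0.12 (SE), so the probes of this gene disagree, and the gene was chosen after its values were seen.

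Promoter sequences are shown for 6 genes described below, because they hold the letters that CREB, SRF or HSF1 are known to bind. They run from 250 bases before to 50 after a RefSeq start site on build GRCm38.p6, are written 5′ to 3′ on the gene's strand, and have the motif letters in capitals. The Fos promoter (chr12:85473640-85473939, plus strand), the Npas4 promoter (chr19:4989922-4990221, minus strand) and the Egr4 promoter (chr6:85513540-85513839, minus strand) each hold the cyclic AMP response core TGACG, on either strand, at 2 places. The Dusp1 promoter (chr17:26508423-26508722, minus strand) holds the full palindrome TGACGTCA and 1 further core.
Fos: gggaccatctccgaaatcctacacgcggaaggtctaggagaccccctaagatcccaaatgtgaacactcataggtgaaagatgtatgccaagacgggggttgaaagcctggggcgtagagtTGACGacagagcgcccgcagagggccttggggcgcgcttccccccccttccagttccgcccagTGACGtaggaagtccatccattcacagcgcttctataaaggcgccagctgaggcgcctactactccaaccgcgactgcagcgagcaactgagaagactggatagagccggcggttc
Npas4: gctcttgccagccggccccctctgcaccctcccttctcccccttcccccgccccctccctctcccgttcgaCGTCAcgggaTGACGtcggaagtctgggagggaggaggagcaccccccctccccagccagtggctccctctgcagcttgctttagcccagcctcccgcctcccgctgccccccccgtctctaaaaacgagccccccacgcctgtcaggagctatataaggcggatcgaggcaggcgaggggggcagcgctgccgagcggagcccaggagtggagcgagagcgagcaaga
Egr4: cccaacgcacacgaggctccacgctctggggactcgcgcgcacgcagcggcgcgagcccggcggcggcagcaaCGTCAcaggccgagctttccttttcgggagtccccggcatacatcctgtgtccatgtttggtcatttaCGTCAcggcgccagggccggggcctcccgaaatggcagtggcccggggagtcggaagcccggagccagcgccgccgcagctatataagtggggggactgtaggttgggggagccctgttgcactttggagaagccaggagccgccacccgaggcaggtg
Dusp1: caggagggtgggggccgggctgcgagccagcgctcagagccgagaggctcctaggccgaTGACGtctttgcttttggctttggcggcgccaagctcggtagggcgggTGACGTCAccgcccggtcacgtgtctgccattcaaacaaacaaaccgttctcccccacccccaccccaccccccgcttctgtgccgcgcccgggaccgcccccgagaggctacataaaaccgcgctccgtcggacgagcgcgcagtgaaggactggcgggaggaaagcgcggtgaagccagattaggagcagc
The Dusp5 promoter (chr19:53528895-53529194, plus strand) holds 2 CArG boxes, the SRF motif, and 1 core. The Chordc1 promoter (chr9:18292017-18292316, plus strand) holds 3 overlapping matches to a heat shock element, GAANNTTCNNGAA or its reverse complement TTCNNGAANNTTC.
Dusp5: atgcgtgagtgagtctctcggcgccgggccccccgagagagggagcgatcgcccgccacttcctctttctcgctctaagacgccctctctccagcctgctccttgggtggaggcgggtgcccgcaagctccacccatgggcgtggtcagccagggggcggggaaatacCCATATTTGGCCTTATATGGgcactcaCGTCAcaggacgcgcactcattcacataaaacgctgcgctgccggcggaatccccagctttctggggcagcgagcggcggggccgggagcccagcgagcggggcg
Chordc1: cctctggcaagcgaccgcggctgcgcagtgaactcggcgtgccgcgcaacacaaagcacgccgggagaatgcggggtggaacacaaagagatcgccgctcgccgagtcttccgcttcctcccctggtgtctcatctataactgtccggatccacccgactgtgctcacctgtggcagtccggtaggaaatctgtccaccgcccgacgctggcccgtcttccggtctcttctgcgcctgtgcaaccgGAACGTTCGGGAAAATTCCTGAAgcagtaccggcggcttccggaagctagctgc
Of 32851 mouse promoters of this length, 20.8% held the core, 1.79% the full palindrome, 1.63% a CArG box and 0.603% a heat shock element. Of the immediate early genes with an unadjusted p under 0.05, 7 had a promoter in the table, and 5 of these held the core, while 0 held a CArG box or the full palindrome. Of the 6 heat shock genes with such a p and a promoter in the table, 2 held a heat shock element, and the windows of Hspa1a, Hspa1b, Dnajb1 and Hspa4l did not hold those letters. These are matches of letters and carry no information on binding in these samples.

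Transcripts of immediate early transcription factors were mostly higher after cocaine. Of 30 listed genes, 18 were detected on all arrays and 10 more had a probe that was not, among them Nr4a1, Nr4a3, Atf3 and Ier2. Of the 18 measured genes, 15 were higher and 3 lower (83.3% higher, against 49.6% of all genes), with a median difference of 0.28. The series criteria were met by 8 (all higher), against 1.67% of all genes. An unadjusted limma p under 0.05 was found for 10 (all higher), against 9.45% of all genes. In 3 the groups did not overlap, against 2.18% of all genes. None of the 18 passed the adjusted threshold in limma.

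Egr2, a zinc finger factor of the Egr family, had the smallest p of the list. It lay at log2 8.94, 8.79 and 8.21 on the saline arrays, at 9.97, 10.44 and 10.25 on the acute arrays, at 9.93, 9.88 and 9.80 on the repeated arrays and at 9.34, 8.88 and 9.56 on the withdrawal arrays. Withdrawal replicate 2 lay within the saline range and the other 8 cocaine arrays above it. The means were 8.65 ± 0.39 (SD, n = 3) and 9.78 ± 0.47 (SD, n = 9), a difference of 1.14 ± 0.17 (SE) or 2.20-fold, with an adjusted limma p of 0.126 and an exact two-sided permutation p of 0.00909. Fos, a subunit of AP-1, lay at 8.51, 9.55 and 8.11 on the saline arrays and between 9.34 and 10.14 (median 9.73) on the cocaine arrays. Saline replicate 2 was thus as high as several cocaine arrays. The difference was 1.02 ± 0.25 (adjusted limma p of 0.278). With single arrays left out it ran from 0.72 to 1.44, the largest without saline replicate 2. Npas4, a neuronal activity-dependent factor, also had its highest saline level on replicate 2: 6.55, 7.66 and 7.25, against 7.66 to 8.19 (median 8.02) after cocaine. Its difference was 0.83 ± 0.19, but it was 0.53 without saline replicate 1 and 1.09 without saline replicate 2.

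Among the other AP-1 subunits, Fosl2 lay at 8.67 to 8.99 on the saline arrays and at 9.08 to 9.90 (median 9.37) on the cocaine arrays, without overlap. Its difference was 0.56 ± 0.15. Fosb was higher by 0.62 ± 0.20 and Junb by 0.43 ± 0.14, and in both genes withdrawal replicate 2 lay inside the saline range. Crem, which encodes repressors and activators that bind cyclic AMP response elements, lay at 6.36, 6.35 and 6.45 on the saline arrays and at 6.64 to 7.06 (median 6.78) on the cocaine arrays. These groups did not overlap either, and the difference was 0.40 ± 0.07 (adjusted limma p of 0.220). The other Crem probes differed by 0.32 ± 0.17 and -0.01 ± 0.10, so the probes of the gene disagree. Egr1, already bright in saline tissue at 13.27 to 13.49, lay at 13.55 to 13.96 (median 13.74) after cocaine, a non-overlapping difference of 0.32 ± 0.09 that is smaller than 1.3-fold. Egr4 was higher by 0.51 ± 0.13 and Egr3 by 0.24 ± 0.11. The remaining 8 measured genes, Cebpd, Klf2, Klf4, Jun, Jund, Cebpb, Srf and Tsc22d1, had differences from -0.17 to 0.18 and no unadjusted p under 0.05. Srf itself, which encodes the factor that binds CArG boxes, differed by 0.04 ± 0.08.

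**Figure D2:**
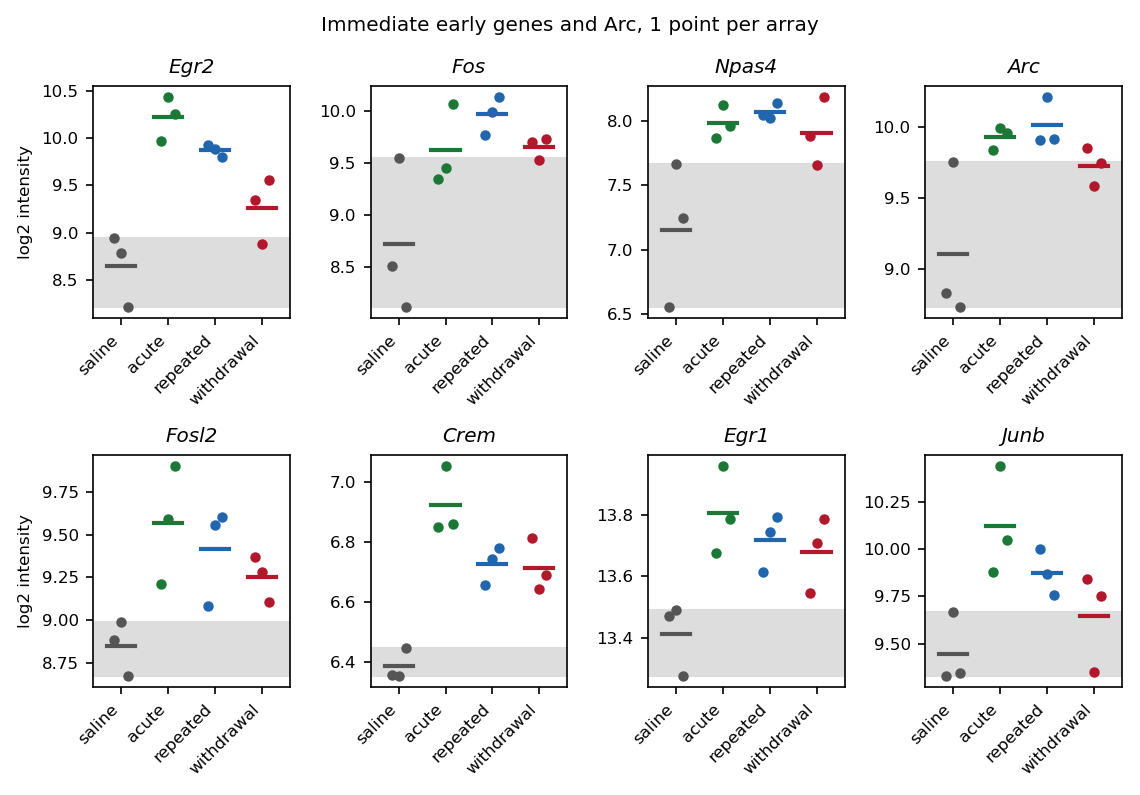
Log2 intensity of 8 genes on each array (points) with the mean of each group (bar), and with the saline range shaded in grey. Fosl2, Crem and Egr1 lie above the shaded range on all 9 cocaine arrays, while saline replicate 2 reaches the cocaine values of Fos, Npas4 and Arc, and withdrawal replicate 2 lies within the saline range of Egr2 and Junb.

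The saline array that was highest for Fos and Npas4, replicate 2, was also the one with the highest mean of the 9 measured cortical neuron markers, at 10.20 against 9.68 and 9.54 on the other saline arrays. It was likewise the highest saline array for interneuron markers (8.91 against 8.49 and 8.46). The same held for septal, hypothalamic and thalamic markers (7.92 against 7.73 and 7.75). Its mean of medium spiny neuron markers, 11.25, was the lowest of all arrays, against 11.50 and 11.46 on the other saline arrays. The cocaine arrays ran from 9.44 to 10.14 on the cortical list, within or below the saline range, and 5 of its 9 measured genes were higher and 4 lower (median 0.01). Egr3 is among these 9 and also belongs to the immediate early list, and the marker mean without it was not taken. Repeated replicate 1 had the lowest cortical marker mean of all arrays, 9.44, and its Fos level of 9.77 lay above all saline arrays. The part of tissue composition in the Fos and Npas4 levels was not tested. In pooled tissue, more cells of a type and more RNA per cell cannot be told apart.

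Effectors that neurons induce with activity were higher in most members, by small differences. Of 41 listed genes 30 were measured, 21 higher and 9 lower (70% higher, against 49.6% of all genes), with a median of 0.11. The series criteria were met by 1 of the 30, Arc, against 1.67% of all genes. An unadjusted limma p under 0.05 was found for 3, Arc, Errfi1 and Dusp14, a share close to the 9.45% of all genes. Arc, which promotes the removal of AMPA receptors from synapses, lay at 8.83, 9.76 and 8.73 on the saline arrays and at 9.59 to 10.22 (median 9.91) on the cocaine arrays. Saline replicate 2 again stood with the cocaine arrays. The difference was 0.79 ± 0.18 with an adjusted limma p of 0.274. With single arrays left out it ran from 0.60 to 1.11. The largest came without saline replicate 2, at an adjusted limma p of 0.0191, and that array is named here for its high Arc level. Errfi1, a feedback inhibitor of the EGF receptor, was higher by 0.26 ± 0.10. The opioid peptide precursors Pdyn and Penk differed by -0.04 ± 0.08 and -0.10 ± 0.12. Homer1, a scaffold of metabotropic glutamate receptors, differed by 0.13 ± 0.10 on its brightest probe. Its other probes differed by 0.18 ± 0.09 and by 0.32 ± 0.14, the latter with an unadjusted limma p of 0.0393. Nrn1, which encodes neuritin, had the largest difference of the list, 1.19 ± 1.19, and no unadjusted p under 0.05. That difference was 0.61, 2.70 and 0.25 without saline replicates 1, 2 and 3. Its levels spanned 4.57 to 9.48 on the saline arrays and 4.35 to 9.37 on the cocaine arrays, and its extremes were the arrays with the extreme cortical marker means, saline replicate 2 and repeated replicate 1.

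Phosphatases and Sprouty proteins that dampen MAP kinase signalling were also higher in most members. Of 17 listed genes 13 were measured, 11 higher and 2 lower, with a median of 0.11. Of the 13, 4 had an unadjusted limma p under 0.05 (all higher), against 9.45% of all genes. Dusp1, a nuclear phosphatase of the MAP kinases, lay at 10.60, 10.94 and 10.42 on the saline arrays and at 10.76 to 11.21 (median 11.01) after cocaine. Only withdrawal replicate 2 and acute replicate 1 fell within the saline range, and the difference was 0.36 ± 0.11. Dusp5, a nuclear ERK phosphatase, differed by 0.36 ± 0.11 and Dusp6, its cytoplasmic counterpart, by 0.26 ± 0.10, which was 0.14 without saline replicate 3. The other 2 Dusp6 probes differed by 0.32 ± 0.12 and 0.30 ± 0.18, in the same direction. Spry4, an inhibitor of receptor tyrosine kinase signalling, met the series criteria at 0.40 ± 0.13, although it is dim and acute replicate 2 (4.76) lay within the saline range of 4.64 to 5.17, and without saline replicate 3 the difference was 0.25. Dusp4 was higher by 0.23 ± 0.12 with its brightest probe and by 0.36 ± 0.08 with another, on which the groups did not overlap, while its dimmest probe differed by -0.23 ± 0.15.

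Cytosolic heat shock genes formed the other group with large differences, carried by a few members. Of 29 listed genes 26 were measured, 16 higher and 10 lower, with a median of 0.04, close to that of all genes. The series criteria were met by 4 of the 26, against 1.67% of all genes. An unadjusted limma p under 0.05 was found for 6, against 9.45% of all genes. In 3 the groups did not overlap, against 2.18% of all genes. All of these were higher. Hspa1a, the stress-inducible Hsp70, had the largest difference of all 10401 genes. It lay at 5.79, 6.48 and 5.21 on the saline arrays, at 5.89, 6.92 and 7.13 on the acute arrays, at 7.77, 8.28 and 7.70 on the repeated arrays and at 7.23, 7.41 and 7.57 on the withdrawal arrays. Acute replicate 1 was within the saline range and the other cocaine arrays were above it. The difference was 1.50 ± 0.28 or 2.82-fold (adjusted limma p of 0.239, exact two-sided permutation p of 0.00909). Hspa1b, a near-identical copy, was higher by 0.70 ± 0.19, and which copy each probe reads is uncertain.

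Dnajb1, an Hsp40 co-chaperone, lay at 11.38, 11.51 and 11.23 on the saline arrays and at 11.53 to 11.98 (median 11.81) on the cocaine arrays, a non-overlapping difference of 0.40 ± 0.08. Hspa4l, an Hsp110-family protein that exchanges nucleotide on Hsp70, lay at 6.56 to 6.93 on the saline arrays and at 6.98 to 7.54 (median 7.36) on the cocaine arrays. The difference of 0.61 ± 0.13 was again without overlap, while the second Hspa4l probe differed by 0.19 ± 0.12. Chordc1, an Hsp90 co-chaperone, lay within 10.28 to 10.31 on the saline arrays and at 10.42 to 10.72 (median 10.55) on the cocaine arrays. Its difference was small, 0.26 ± 0.07, and none of the arrays overlapped. Hsph1, also of the Hsp110 family, was higher by 0.29 ± 0.08, with withdrawal replicate 1 inside the saline range and acute replicate 1 just above it. The other 20 measured members had no unadjusted limma p under 0.05, and their differences ran from -0.22 (Ahsa2, an Hsp90 co-chaperone) to 0.21 (Hspb1, a small heat shock protein). Among further co-chaperones of Hsp70 and Hsp90, Bag3 differed by 0.17 ± 0.08, Stip1 by 0.06 ± 0.07, Ahsa1 by 0.01 ± 0.07, Fkbp4 by -0.08 ± 0.07 and Dnaja1 by -0.09 ± 0.17. Hspa8, the constitutive cytosolic Hsp70, differed by 0.10 ± 0.08 on its brightest probe and by 0.21 ± 0.07 on another, and Hsp90aa1, an inducible Hsp90, by 0.15 ± 0.12. The small heat shock protein Cryab differed by -0.17 ± 0.11, the mitochondrial chaperones Hspd1 and Hspe1 by 0.03 ± 0.08 and -0.06 ± 0.12, and the factor Hsf2 by -0.07 ± 0.10.

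**Figure D3:**
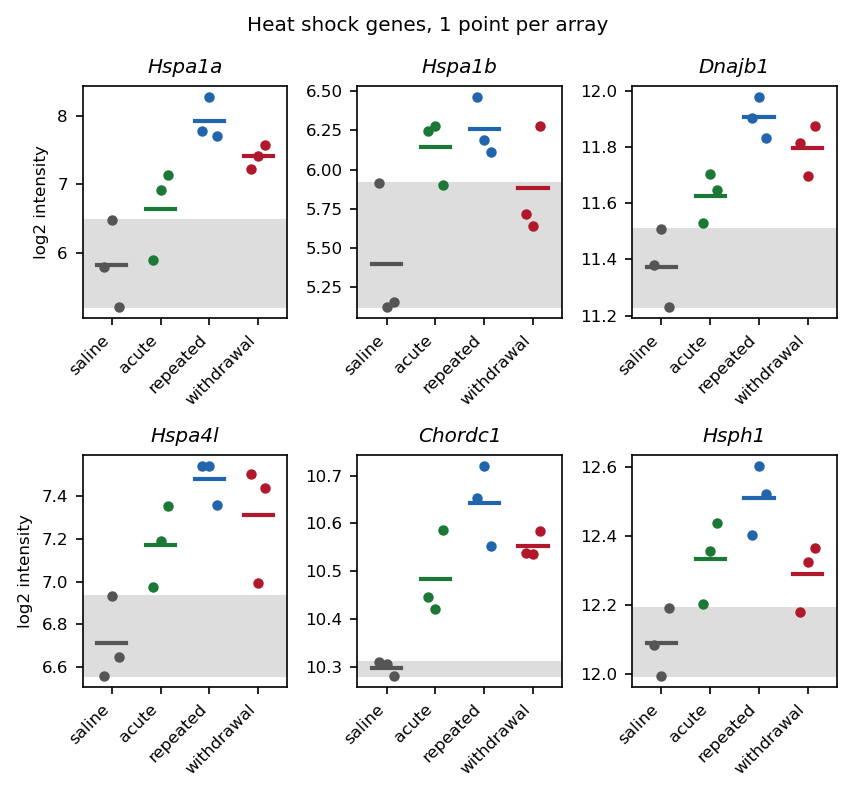
Log2 intensity of 6 heat shock genes on each array (points) with the mean of each group (bar) and the saline range shaded in grey. Dnajb1, Hspa4l and Chordc1 lie above the saline range on all 9 cocaine arrays, and Hspa1a is highest on the 3 repeated arrays, at 7.70 to 8.28.

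Chaperones of the endoplasmic reticulum, which answer to other factors, were measured for 21 of 25 listed genes, 13 higher and 8 lower (median 0.02), and 0 met the series criteria. An unadjusted limma p under 0.05 was found for 1 of the 21, a share under the 9.45% of all genes. That gene was Ddit3, which encodes the stress factor CHOP. It was lower by 0.29 ± 0.12 on this probe, with its second probe at -0.27 ± 0.09. Hspa5, the main chaperone of that compartment, differed by 0.13 ± 0.23. Of the RNA-binding proteins linked to cold and stress, 13 of 16 were measured, 6 higher and 7 lower. Cirbp, the cold-inducible RNA-binding protein, lay at 9.77, 9.81 and 10.04 on the saline arrays and at 9.41 to 9.67 (median 9.54) on the cocaine arrays. All cocaine arrays were below all saline arrays, with a difference of -0.33 ± 0.09 (adjusted limma p of 0.299). The acute, repeated and withdrawal groups lay below saline by differences of -0.33, -0.33 and -0.33. Clk1, a kinase of splicing factors, was higher by 0.29 ± 0.09, and Ddx5, an RNA helicase, by 0.19 ± 0.08.

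The other 10 genes among the 12 with the smallest p and a higher level after cocaine were of mixed function, beside Egr2 and Crem, and 3 of them, Hspa1a, Dnajb1 and Hspa4l, are described above. Rnd3, a small GTP-binding protein that acts on the actin cytoskeleton, lay at 8.36, 8.22 and 8.28 on the saline arrays and at 8.58 to 9.02 (median 8.72) on the cocaine arrays. The groups were separate, and the difference was 0.45 ± 0.08 (adjusted limma p of 0.187, exact two-sided permutation p of 0.00455, the smallest that 220 ways of choosing 3 of 12 arrays allow). These ways disregard the replicate numbers. Choosing 1 array within each number allows 64 ways, for which the exact two-sided permutation p was 0.0156 for Rnd3, Egr2 and Hspa1a alike, the smallest they can give. Rnd3, Egr2 and Hspa1a were chosen for a small limma p on the same arrays. Their permutation p-values are not corrected for that choice and add no separate support. Naa30, the catalytic subunit of an amino-terminal acetyltransferase, lay at 7.59 to 7.64 on the saline arrays and at 7.81 to 8.23 (median 8.07) after cocaine, a difference of 0.44 ± 0.08. Gabrg3, a subunit of GABA-A receptors, lay at 7.40 to 7.58 and at 7.74 to 8.03 (median 7.95) in the same order, and differed by 0.41 ± 0.08. Each of these 3 genes was read by 1 kept probe, and no array was out of order. H4c4, a histone H4 gene, was higher by 0.65 ± 0.11, Spty2d1, a histone chaperone, by 0.69 ± 0.14, and Zfp449, a zinc finger gene, by 0.42 ± 0.09, all without overlap. Snrnp48, a protein of the minor spliceosome, was higher by 0.56 ± 0.10 on its brightest probe, but its other probes differed by -0.12 ± 0.10 and -0.11 ± 0.16. Several of these genes are dim, and the background subtraction bears on their size: without it the difference was 0.22 for H4c4, 0.25 for Crem, 0.32 for Hspa1b, 0.15 for Spry4, 0.23 for Zfp449, 0.27 for Spty2d1 and 0.92 for Hspa1a. With a floor of 50 the Spty2d1 difference was 0.09.

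The 12 genes with the smallest p among those lower after cocaine had mean log2 levels from 4.59 to 8.20 on the cocaine arrays, and of these genes only Cd52 belongs to one of the lists. Fbxo46, an F-box protein of ubiquitin ligases, lay at 7.68, 7.52 and 7.58 on the saline arrays and at 7.01 to 7.41 (median 7.19) on the cocaine arrays. It was lower on every cocaine array, by a difference of -0.39 ± 0.08 (adjusted limma p of 0.274). Azin2, an antizyme inhibitor that acts on polyamine synthesis, lay at 5.17, 5.18 and 5.29 on the saline arrays and at 4.27 to 4.86 (median 4.65) on the cocaine arrays, a difference of -0.62 ± 0.13. Pold2, a subunit of DNA polymerase delta, differed by -0.42 ± 0.10, Smagp, a cell adhesion glycoprotein, by -0.45 ± 0.10, and Bco2, an enzyme that cleaves carotenoids, by -0.55 ± 0.14. In these 5 genes, and in Cd52, Ripply2, Bod1l and B830017H08Rik (-0.46 to -0.38), the groups did not overlap. Med13l, of the Mediator kinase module, differed by -0.51 ± 0.12 and Gngt2, a G protein gamma subunit, by -0.46 ± 0.11, each with overlap. Acad10, a relative of the acyl-CoA dehydrogenases, had its low levels on the acute arrays: 4.31, 4.36 and 4.66, against 5.30, 5.30 and 5.64 in saline and 5.05 to 5.43 in the other cocaine arrays. Its difference was -0.44, and -0.18 without the acute group, and its second probe differed by 0.17 ± 0.23. These genes too depend on the background subtraction: without it the difference was -0.20 for Azin2, -0.21 for Smagp, -0.24 for Bco2, -0.25 for Cd52 and Ripply2, -0.28 for Med13l, -0.19 for Gngt2 and -0.16 for Acad10. With a floor of 50 Gngt2 differed by -0.10.

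Clock genes and chromatin enzymes had small median differences. Of 17 measured clock genes, 12 were higher and 5 lower (median 0.04). An unadjusted limma p under 0.05 was found for 2 of the 17, against 9.45% of all genes, namely Clock (0.28 ± 0.08) and Per2 (0.32 ± 0.10). Per2, a repressor in the circadian feedback loop, lay at 10.67 to 10.81 on the saline arrays and at 10.82 to 11.51 (median 11.04) on the cocaine arrays, just above the saline arrays, and its second probe differed by 0.32 ± 0.08. Among 17 measured enzymes and readers of H3K9 methylation, 11 were higher and 6 lower (median 0.08). An unadjusted limma p under 0.05 was found for 3 of the 17, all higher, against 9.45% of all genes. Ehmt2, which encodes G9a, lay at 10.20 to 10.31 on the saline arrays and at 10.08 to 10.35 on the cocaine arrays. These ranges overlap, with a difference of -0.02 ± 0.08 on this probe and of -0.01 ± 0.07 on the other. Its partner Ehmt1 differed by -0.30 ± 0.30 at a dim level, and by -0.60 to -0.13 with single arrays left out, both ends by leaving out a saline array. Kdm7a, a demethylase of H3K9, lay at 10.43, 10.50 and 10.50 on the saline arrays and at 10.53 to 10.89 (median 10.80) on the cocaine arrays. The difference of 0.28 ± 0.08 was without overlap, and its second probe differed by 0.50 ± 0.09, also without overlap. Setdb1, an H3K9 methyltransferase, was higher by 0.22 ± 0.08 and Kdm1a, a demethylase, by 0.16 ± 0.07. Of 20 measured histone acetylation enzymes, 9 were higher and 11 lower (median -0.02), and 2 (10%, against 9.45% of all genes) had an unadjusted limma p under 0.05. Those were Sirt1, a deacetylase, at 0.26 ± 0.10 (0.16 without saline replicate 2), and Ep300, an acetyltransferase, at 0.16 ± 0.07. Below 0 in the same list were Kat8, an acetyltransferase, at -0.14 ± 0.07, and Hdac10, a deacetylase, at -0.29 ± 0.15, neither with a p under that limit.

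**Figure D4:**
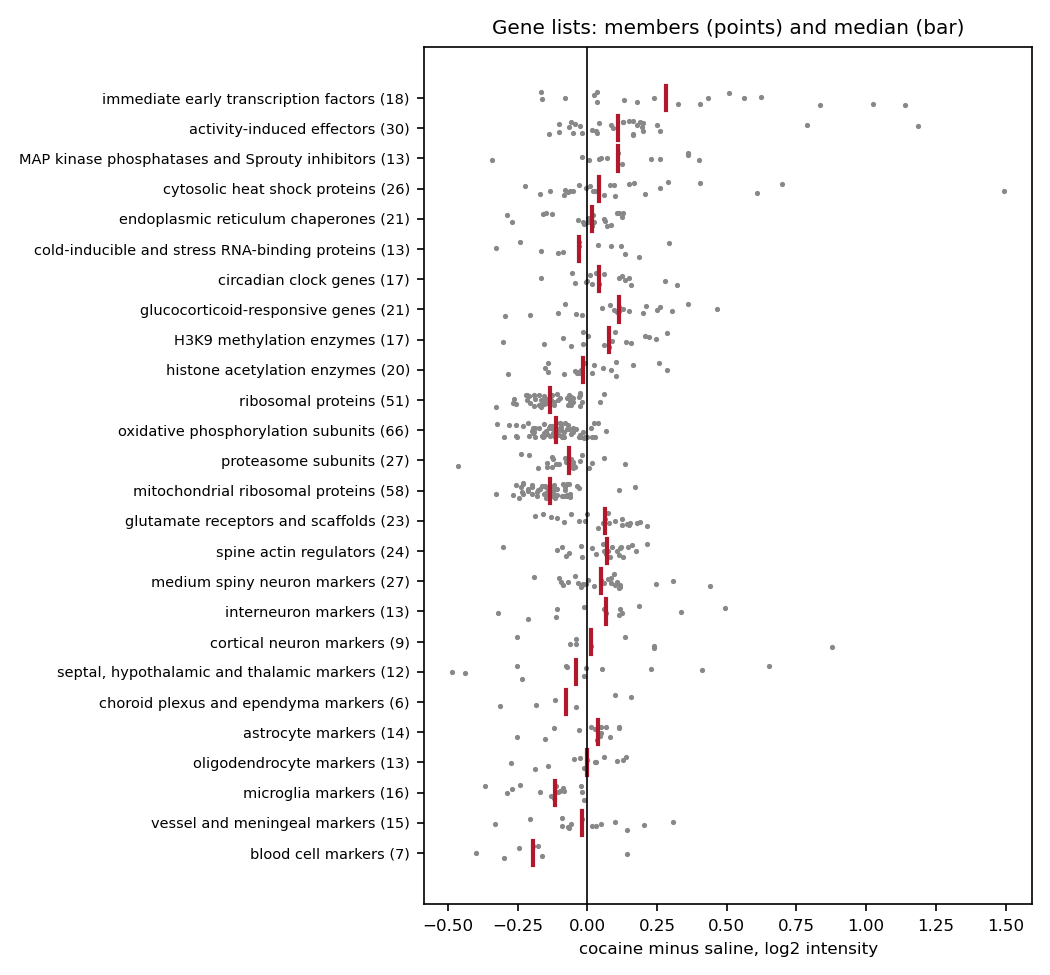
Cocaine minus saline in log2 intensity for each measured member (grey points) of 26 gene lists, with the list's median (red bar), the number of measured members in parentheses and the median of all genes (black line). The median is highest for immediate early transcription factors, at 0.28, and the points of the ribosomal, mitochondrial ribosomal and oxidative phosphorylation lists lie mostly left of the line.

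Genes of protein synthesis and of mitochondrial energy supply were slightly lower after cocaine in most members. Of 80 listed cytosolic ribosomal proteins 51 were measured, and 49 of them were lower (96.1%, against 50.4% of all genes), with a median of -0.13. An unadjusted limma p under 0.05 was found for 16, all lower, against 9.45% of all genes. The series criteria were met by 0, and in 4 the groups did not overlap, against 2.18% of all genes. Rpl24, of the large subunit, lay at 12.52, 12.33 and 12.33 on the saline arrays and at 12.00 to 12.27 (median 12.08) on the cocaine arrays. The groups were separate, and the difference was -0.27 ± 0.08. Rpl36a lay at 11.94 to 12.10 on the saline arrays and at 11.68 to 11.88 (median 11.80) on the cocaine arrays, which differed by -0.22 ± 0.07. The mean over the 51 genes was 12.58 to 12.62 on the saline arrays and 12.42 to 12.53 on the cocaine arrays, without overlap. Of 58 measured mitochondrial ribosomal proteins 56 were lower (median -0.14), and 12 had an unadjusted limma p under 0.05, against 9.45% of all genes. Mrps16, of the small mitochondrial subunit, lay at 9.60, 9.59 and 9.54 on the saline arrays and at 9.05 to 9.50 (median 9.25) on the cocaine arrays, a non-overlapping difference of -0.33 ± 0.07.

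Of 66 measured subunits of oxidative phosphorylation, 60 were lower (median -0.11) and 13 had an unadjusted limma p under 0.05, against 9.45% of all genes. Ndufb3, of complex I, lay at 11.49, 11.75 and 11.50 on the saline arrays and at 11.19 to 11.41 (median 11.30) on the cocaine arrays, a non-overlapping difference of -0.28 ± 0.08. The list's mean ran from 11.74 to 11.91 on the saline arrays and from 11.62 to 11.79 on the cocaine arrays, which overlapped through saline replicate 3. Of 27 measured proteasome subunits, 23 were lower (median -0.07), with Psmb1 at -0.21 ± 0.06. With single arrays left out the proteasome median ran from -0.12, without saline replicate 3, to -0.06. Many genes of these 4 lists are bright, and the part of brightness in their differences was not tested. Of all 565 genes with a mean log2 level from 12 to 16, 43.2% were lower, and of 2114 from 10 to 12, 47.1%, in classes chosen after seeing the data.

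**Figure D5:**
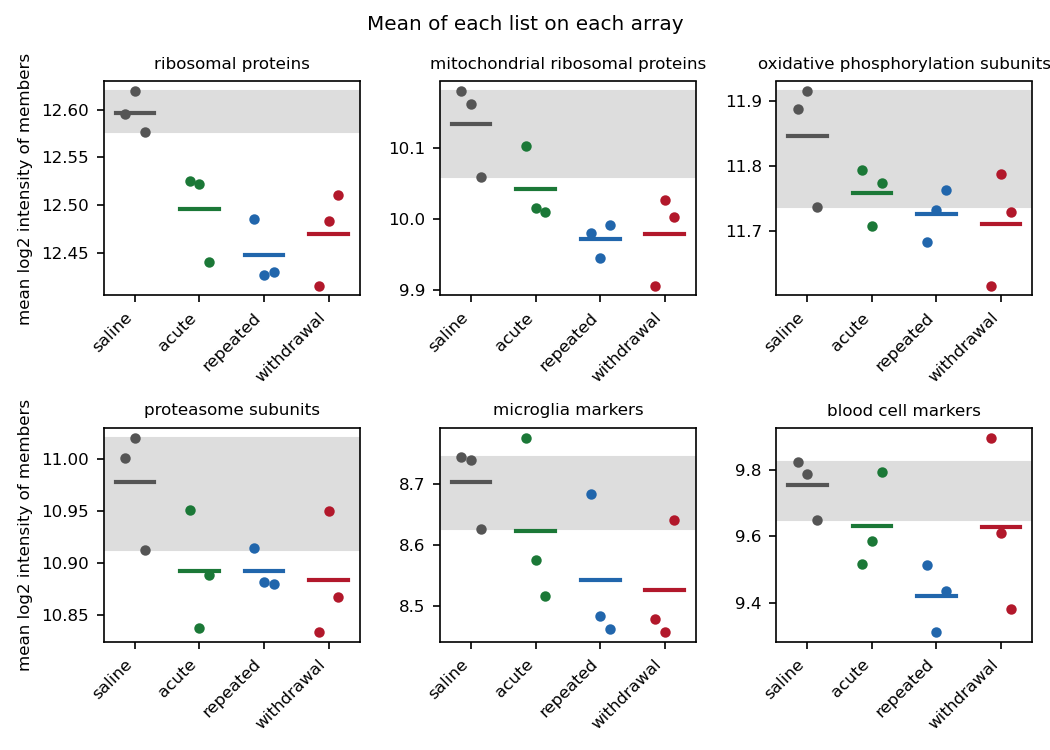
Mean log2 intensity over the measured members of 6 lists on each array (points), with the group mean (bar) and the saline range shaded in grey. For ribosomal proteins all 9 cocaine arrays (12.42 to 12.53) lie below the 3 saline arrays (12.58 to 12.62), while the other lists overlap.

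Microglial markers were lower in 16 of 16 measured genes, with a median of -0.12. With single arrays left out that median ran from -0.18, without saline replicate 3, to -0.08. Tmem119, a microglial membrane protein, lay at 7.63, 7.87 and 7.83 on the saline arrays and at 7.25 to 7.63 (median 7.54) on the cocaine arrays, and differed by -0.29 ± 0.09. Trem2, a lipid receptor of microglia, differed by -0.24 ± 0.08, and in both genes all cocaine arrays were below the saline arrays, Tmem119 by a narrow margin. The list's mean nevertheless overlapped between groups, at 8.63 to 8.75 in saline and 8.46 to 8.78 in cocaine. Of 7 measured blood cell markers 6 were lower (median -0.19), including Cd52, a glycoprotein of leukocytes, at -0.40 ± 0.09, and Hba-a1, alpha globin, at -0.30 ± 0.15 (-0.18 without saline replicate 1), and the list's mean ran from 9.65 to 9.82 in saline and 9.31 to 9.90 in cocaine. Their part in the other differences was not tested. Medians of the markers of astrocytes (0.04), oligodendrocytes (-0.00), vessels and meninges (-0.02), interneurons (0.07), choroid plexus and ependyma (-0.08) and septal, hypothalamic or thalamic tissue (-0.04) lay between -0.08 and 0.07.

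Genes of synaptic glutamate signalling and of spine actin had few members with a small p. Of 23 measured glutamate receptor and scaffold genes 14 were higher (60.9%, against 49.6% of all genes) and 9 lower, with a median of 0.06 that was 0.03 without saline replicate 1. Only 1 had an unadjusted limma p under 0.05, Gria2, a subunit of AMPA receptors, at 0.21 ± 0.08, while Grin2b, a subunit of NMDA receptors, differed by -0.19 ± 0.11. Of 24 measured spine actin regulators 17 were higher and 7 lower (median 0.07), and 1 had an unadjusted limma p under 0.05. In both lists the share with such a p lay under the 9.45% of all genes. The spine gene was Trio, a guanine nucleotide exchange factor, which lay at 10.86 to 10.98 on the saline arrays and 10.98 to 11.25 (median 11.16) on the cocaine arrays. Its difference was 0.21 ± 0.08, with the groups just apart, while its second probe differed by 0.06 ± 0.12. The transcription factor Mef2d of the same list differed by -0.30 ± 0.19. Of 21 measured glucocorticoid-responsive genes, 15 were higher and 6 lower (median 0.11, and 0.06 without saline replicate 3). Among the higher ones, Dusp1, Errfi1, Sgk1, Per1 and Cdkn1a also belong to the effector or phosphatase lists. An unadjusted limma p under 0.05 was found for 2 higher genes, Dusp1 and Errfi1, and for 1 lower, against 9.45% of all genes in either direction. The lower one was Nfkbia, the inhibitor of NF-kappaB, at -0.30 ± 0.09, while Sgk1, at 0.25 ± 0.12, was not under that limit.

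Whether the 3 cocaine groups differed from each other was tested separately, with a moderated F test that does not use the saline mean. Of 19247 probes 0 passed the adjusted threshold in limma (the smallest was 0.523), while an unadjusted p under 0.05 was found for 966 (5.02%), about as many as the threshold gives by its definition. Of 10401 genes 456 (4.38%) had an unadjusted p under 0.05. Of the 437 probes meeting the series criteria against saline, 42 (9.61%) had an unadjusted F p under 0.05. Those probes were selected by a p that shares its estimate of spread with the F test. Their share therefore cannot be compared with the 5.02% of all probes. Egr2 differed from saline by 1.57 in acute, 1.23 in repeated and 0.61 in withdrawal mice, with an unadjusted F p of 0.00247. Hspa1a had another order, at 0.82, 2.09 and 1.58 (unadjusted F p of 0.0119), and Dnajb1 likewise, at 0.26, 0.53 and 0.42 (unadjusted F p of 0.0454). Per2 differed by 0.19, 0.56 and 0.21 (unadjusted F p of 0.0199), Rnd3 was highest in acute mice, and Fos and Npas4 had unadjusted F p-values of 0.486 and 0.788. The cocaine groups share their saline arrays, so an error in the saline mean enters all 3 differences of a gene alike. The medians over immediate early transcription factors were 0.38, 0.30 and 0.20 in the order acute, repeated and withdrawal.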

How the data were processed

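Groups, replicate numbers, doses and times come from the labels. Per the series text, the authors used BeadStudio for background subtraction and quantile normalization of the intensity values. The deposited intensity table without background subtraction equals the subtracted one plus a constant of 60.7, and per the file headers it also holds the detection p-value of every probe on every array. Subtracted values below 10 were set to 10 before log2 was taken, and 0 kept values lay at that floor. The files gave 1 symbol for 34885 probes, several for 18 and none for 10378. Between 22189 and 23803 probes were detected per array, the number of arrays limits the precision, and slides and scan times are not given in the sources used here.

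The fit used limma 3.58.1 under R 4.3.3 (lmFit, contrasts.fit, eBayes), with 4 group means, the contrast of the mean of the 3 cocaine groups minus saline, 8 residual and 3.20 prior degrees of freedom, and no covariate. Tests were two-sided, with Benjamini-Hochberg adjustment over 19247 probes at 0.05, and errors are limma standard errors unless called SD. The fit was tested on simulated data. Lists are described by counts and medians, with no test over a list. A gene is named if it is among the 12 with the smallest p in a direction under the series criteria, among the 4 of a list with the smallest p, or a member of the immediate early, effector, phosphatase, chaperone, RNA-binding or clock lists, and Ehmt1 and Ehmt2 are always given. The members and lists were chosen with earlier results of these data known. Same-numbered arrays were checked for deviating together: the deviation of a saline array from its group mean correlated, across probes, with that of the cocaine arrays of its number at r = 0.455, 0.383 and 0.109 for numbers 1, 2 and 3, so a fit with that block was made beside the other. Promoters are RefSeq sequences on GRCm38.p6.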

Additional observations from a re-analysis of the deposited data

Results flagged for a closer look

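Among 83 named genes with an unadjusted limma p under 0.05, checked for an array standing apart from the other 8 of the cocaine set, 4 had such an array, and chance alone flags about 1 group in 20. Ripply2 was lowest on withdrawal replicate 1 at log2 5.60, and Atp5g2, a subunit of ATP synthase, was lowest on the same array at 9.96. Spry4 was lowest on acute replicate 2 at 4.76, and Mrpl23, a mitochondrial ribosomal protein, was highest on acute replicate 1 at 11.5. The Spry4 array lies towards the saline arrays and the Ripply2 and Atp5g2 array away from them. None of these values was left out.

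Outside the probes detected on all arrays, 2 probes were detected on 9 of 9 cocaine and 0 of 3 saline arrays, and 0 probes showed the reverse. They belong to Med20, a Mediator subunit, which was at least 1.36-fold higher in cocaine, and to Agtpbp1, a carboxypeptidase that trims tubulin tails, which was at least 1.66-fold higher. These bounds set the mean of the cocaine arrays against the lowest detected signal on the saline arrays and had no test. The cocaine intensities ran from 14.6 to 28.9 for Med20 and from 15.8 to 54.5 for Agtpbp1, both near the detection limit. Other probes of these genes, detected on all arrays, differed by -0.41 ± 0.11 (SE) and 0.07 ± 0.07 on the log2 scale for Med20 and by 0.16 ± 0.15 for Agtpbp1, so the probes disagree.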

How the results depend on the processing

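The count of probes past the adjusted threshold, 0, became 1 with an intensity trend (Egr2, adjusted limma p 0.0102), 1 on signals without background subtraction (Egr2, difference 1.03, adjusted p 0.0172), 1 with number 1 blocked against 2 and 3 (Gca, 0.0433) and 2 with the replicate block. Leaving out single arrays gave 0 to 1, the 1 being Arc without saline replicate 2 (1.11). The 437 probes meeting the series criteria became 174 with 1 probe per gene, 789 with detection on at least 3 arrays, 680 with no filter, 166 with a floor of 50, 180 at a mean log2 of at least 6, 26 without background subtraction and 756 without the acute group. They ranged from 406 to 829 when single arrays were left out, with 829 without saline replicate 3. The difference among cocaine groups, 0 probes, became 1 with a floor of 50 (Rab3c) and 1 with no filter (Pdzrn4), and was 0 with each single array left out. The 2023 probes with an unadjusted p under 0.05 became 1105 with 1 probe per gene, 1191 without the repeated group and 2968 without the acute group, and ranged from 1303 (without saline replicate 2) to 2548 when single arrays were left out. Some settings use fewer genes or samples by construction. Signals without background subtraction are larger by the constant of 60.7, and a floor of 50 raises low values. Both shrink the log2 differences of dim probes by arithmetic. Other causes were not tested.

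Over all settings the median of immediate early transcription factors ranged from 0.24 to 0.34, of ribosomal proteins from -0.16 to -0.11, of mitochondrial ribosomal proteins from -0.18 to -0.11, of oxidative phosphorylation subunits from -0.16 to -0.09 and of microglial markers from -0.18 to -0.08. Medians of lists near 0, such as the medium spiny neuron, cortical and interneuron markers, changed sign in at least 1 setting. With a floor of 50, every array lay at the floor for Azin2 and Acad10, which gives no value. Brightness classes and the permutation within replicate numbers were added after seeing the data. Dim genes are limited by the signal over background.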
